A study of Xenopus laevis with 12 samples.

Results

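The genes described here encode the machinery of chromosomal DNA replication, from origin recognition to strand joining, in gastrula embryos of the frog Xenopus laevis. They were chosen by name from the array's annotation, as the genes orc1 to orc6, cdc6, cdt1, gmnn, mcm2 to mcm10, cdc7, dbf4, cdc45, gins1 to gins4, topbp1, the primase and DNA polymerase alpha, delta and epsilon subunits, rfc1 to rfc5, pcna, rpa1 to rpa3, fen1, lig1, rrm1 and rrm2. Many genes of this frog exist as a long-chromosome copy (L) and a short-chromosome copy (S), and each copy counted separately, through whichever of its probe sets had the highest mean log2(signal + 16). This gave 55 gene copies, 40 of the L and 15 of the S type, among 7531 named in all. The choice went by name and mean signal and did not use the difference between the groups. The lists were, however, chosen with earlier results of these data known. No probe set was named for mcm9, pold1, pold4, rfc1 or rrm2.

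Transcripts were measured in whole single embryos at stage 11.5, late in gastrulation, with a 1-colour Affymetrix array per embryo, from 100 ng of total RNA labelled in a 2-cycle protocol. A control group of 6 embryos had received GFP mRNA, which encodes a jellyfish fluorescent protein, at the 8-cell stage. The other 6 embryos had received Nkx2-5 mRNA, which encodes a homeodomain transcription factor of early heart development, together with GFP mRNA, so GFP mRNA is common to both groups. The labels do not say which blastomeres were injected or whether embryos shared parents, and the replicate error is thus that among the sampled embryos. The study's title speaks of putative targets of Nkx2-5, and the comparison asks which transcripts differ when its mRNA is supplied early.

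Before S phase, origins are licensed for replication, as the origin recognition complex, Cdc6 and Cdt1 load the ring-shaped Mcm2-7 helicase onto DNA. In S phase, the kinase Cdc7 with Dbf4 and cyclin-dependent kinases switch the helicase on by adding Cdc45 and GINS, and polymerases alpha, delta and epsilon then copy the strands. A Xenopus egg holds large maternal stores of these proteins and of their mRNAs, which carry the embryo through rapid cleavage cycles, and its egg extracts are a classical system for the study of origin licensing. Cell cycles lengthen after the midblastula transition, as zygotic transcription begins.

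Some features of the whole data set bear on these genes. The deposited signals had nearly equal trimmed means on all 12 arrays, and array medians lay between 305 and 350. The array of Nkx2-5+GFP embryo 6 stood apart in 2 measures. Its 10th percentile of signals was 24.9, against 17.5 to 20.0 on the other arrays. The control probe set BioB-5 read 701 on it, against 388 to 499. The brighter nkx2-5.S probe set rose from 94.98 ± 33.4 in GFP to 169 ± 39.7 in Nkx2-5+GFP embryos (SD, n = 6 each; limma adjusted p = 0.0431). The other nkx2-5.S probe set, at 93.7 ± 20.7 and 140 ± 24.8, did not pass (log2 difference 0.52, limma adjusted p = 0.0731). Transcript levels of tissue markers differed between the groups. For scale, 3.12% of all probe sets rose and 3.26% fell at a limma adjusted p under 0.05. Markers, too, were counted by gene copy. Of 8 epidermal copies 6 rose, and the summed signal of the 8 ranged from 13890 to 17592 in GFP and from 20914 to 31653 in Nkx2-5+GFP embryos, without overlap. Of 15 endoderm copies 3 fell, mix1.L, mix1.S and gata5.S, with sums over the 15 of 20585 to 25464 against 16760 to 21170. Of 10 mesoderm copies 4 rose, and of 11 neural plate copies 2 rose and 1 fell. Of 7 germ plasm and maternal copies 2 fell, with sums over the 7 of 13858 to 19630 against 12258 to 17654. Of 10 organizer copies 0 passed the test. At an unadjusted p under 0.05, 1 organizer copy was lower and 1 higher (20%, against 24.3% of all probe sets). The dimmest of these markers were neurog2.L, a neural gene at a mean of 7.82 in GFP embryos, and tp63.L, an epidermal one at 20.1. The part of these markers in the replication results was not tested. In whole embryos, fewer cells that express a gene and less RNA per cell cannot be told apart.

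Replication transcripts differed in both directions, with more falls than rises. The helicase factor gene cdc45.L fell the most, followed by orc6.L, of the origin recognition complex, and cdc6.S, and the other copy of this licensing gene, cdc6.L, fell by less. The polymerase delta subunit gene pold2.L and the single-strand binding subunit gene rpa3.S fell as well, while gins1.S and mcm6.2.L, both of the replicative helicase, rose. In all, limma called 6 of 55 lower and 2 higher (Benjamini-Hochberg adjusted p under 0.05 over all probe sets), and 47 did not pass. Over all 15491 probe sets, 3.26% were called lower, 3.12% higher and 6.38% in either direction, against 10.9%, 3.64% and 14.5% of the replication genes. Over the 7531 named gene copies, 3.86% were called lower. Among the 7746 brighter probe sets alone, 5 of 41 replication genes were called lower (12.2%, against 7.55% of those probe sets) and 2 higher (4.88%, against 5.53%), so the gap to the background for falls was smaller there.

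**Figure D1:**
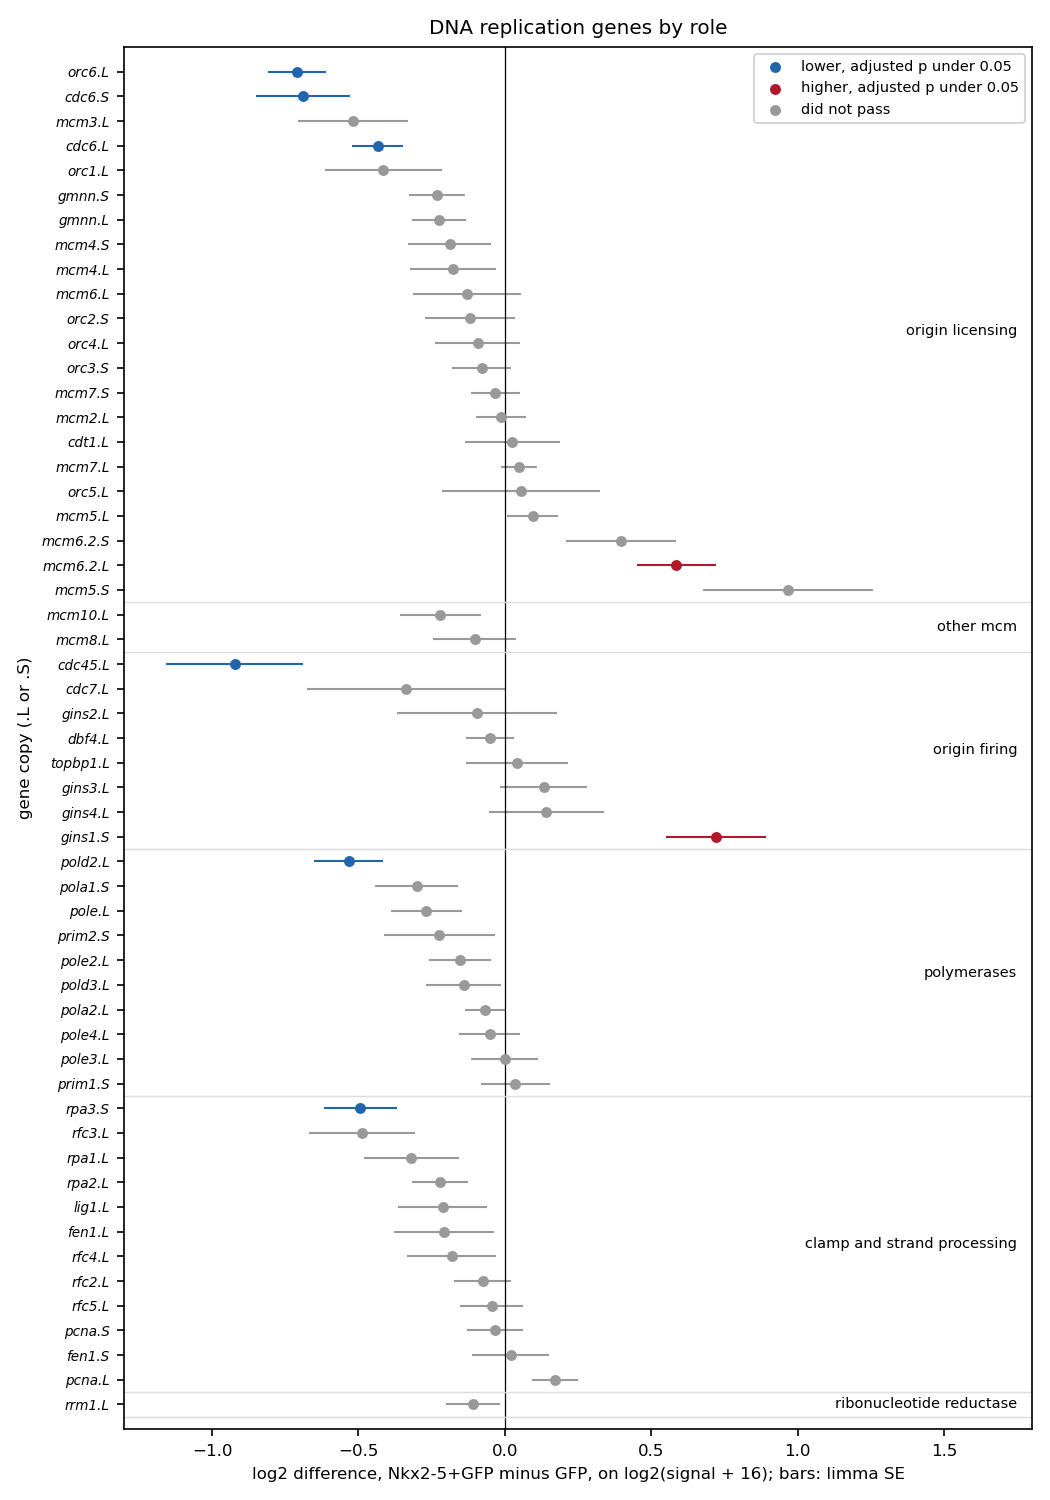
Log2 difference of each of the 55 replication gene copies, Nkx2-5+GFP minus GFP, on the log2(signal + 16) scale, with bars for limma's SE, grouped by role. The 6 copies called lower lie between -0.92 and -0.43 and the 2 called higher at 0.58 and 0.72, and mcm5.S lies at 0.97 with a wide bar and did not pass.

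The median log2 difference over the 55 copies was -0.11, against -0.02 over all probe sets, and 41 of 55 copies had a difference below 0 (74.5%, against 52.3% of all probe sets). With each array centred on its median, these values were -0.06 and 36 of 55, against 0.03 and 45.1%. At an unadjusted p under 0.05, 17 copies passed (30.9%), 13 lower and 4 higher, against 24.3% over the array and 26.9% of all named gene copies. Among the brighter probe sets alone, 11 of 41 copies were lower and 3 higher at that threshold. There, 2545 of 7746 probe sets passed in either direction, a share near that of the copies. Over the 55 copies, the median of within-group SDs was 0.23 on the log2 scale, and 0.28 for the array as a whole. Embryos of one group lay wholly apart from those of the other in 5 copies, orc6.L, pold2.L and rpa3.S on the lower side and mcm6.2.L and gins1.S on the higher (9.09%, against 2.99% of all probe sets, 1.42% lower and 1.57% higher).

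The number of calls depended on single embryos. The 6 calls for lower signals came to 2 without GFP embryo 3, to 3 without GFP embryo 4, GFP embryo 6, Nkx2-5+GFP embryo 1 or Nkx2-5+GFP embryo 2, and to 9 without Nkx2-5+GFP embryo 5. Calls over the whole array moved as well, from 3.26% called lower with every embryo to 0.78% without GFP embryo 3. The share was 0.68% to 1.52% for the omissions that gave 3 calls, and 5.44% without Nkx2-5+GFP embryo 5. Among replication genes it was 3.64% without GFP embryo 3 and 16.4% without Nkx2-5+GFP embryo 5. The 2 calls for higher signals came to 0 without Nkx2-5+GFP embryo 1, where mcm6.2.L and gins1.S had limma adjusted p-values of 0.0593 and 0.0586, and to 1 without any one of GFP embryos 2, 3 and 4 and Nkx2-5+GFP embryos 4 and 6. Of all probe sets, 3.12% were called higher with every embryo and 1.16% without Nkx2-5+GFP embryo 1. The log2 ratio of the 3' to the 5' beta-actin control probe set, a measure of RNA integrity and labelling, was 1.76 ± 0.26 in GFP and 1.57 ± 0.11 in Nkx2-5+GFP embryos (SD, n = 6 each; 2-sided exact permutation p = 0.154). With this ratio in the fit, orc6.L alone stayed called among the replication genes, and 160 of all probe sets were called in place of 988. In that fit the log2 differences were -0.87 for cdc45.L, -0.72 for orc6.L, -0.59 for cdc6.S and -0.49 for rpa3.S. They were -0.46 for pold2.L, -0.41 for cdc6.L, 0.53 for mcm6.2.L and 0.76 for gins1.S. The values without the ratio are given with each gene below.

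Origin licensing genes numbered 22, of which 3 fell, 1 rose and 18 did not pass (13.6% and 4.55%, against 3.26% and 3.12% of all probe sets). At an unadjusted p under 0.05, 36.4% of them passed, against 24.3% of all probe sets and 26.9% of all named gene copies. The strongest evidence was for orc6.L, which encodes the smallest subunit of the origin recognition complex. Its signals ran from 1158 to 1492 with a median of 1238 in GFP embryos, and from 685 to 901 with a median of 745 in Nkx2-5+GFP embryos. Every embryo given Nkx2-5 thus lay below every control, and GFP embryo 3 was the highest. orc6.L fell by 0.71 on the log2 scale (SE 0.10, a 1.64-fold difference, limma adjusted p = 0.00141). Its unadjusted exact permutation p was 0.00216, the smallest that 924 assignments can give. Adjusted over all probe sets, the exact permutation p was 0.0724 and did not pass. Leaving out each embryo in turn kept limma's adjusted p between 0.00165 and 0.00518. A second, dim orc6.L probe set, with means of 33.9 for GFP and 33.6 for Nkx2-5+GFP embryos, did not pass (log2 difference -0.15, limma adjusted p = 0.814), and the mean of both probe sets had a difference of -0.43 and lost the call (limma adjusted p = 0.105).

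The other subunits of the complex did not pass. orc1.L, its ATPase, ranged from 507 to 1214 in GFP and from 491 to 741 in Nkx2-5+GFP embryos (log2 difference -0.42, SE 0.20, limma adjusted p = 0.217). GFP embryos 3 and 6 were high and GFP embryos 1 and 5 low, and the groups overlapped. The remaining subunit genes orc2.S, orc3.S and orc4.L had log2 differences of -0.12, -0.08 and -0.09. orc5.L was dim, at means of 14.6 and 15.98, where a difference is compressed by the pseudocount of 16.

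cdc6 encodes the ATPase that joins the origin recognition complex to load the helicase, and both of its copies fell. cdc6.L had signals of 5944 to 7834 with a median of 6349 in GFP embryos, and of 4391 to 5972 with a median of 4739 in Nkx2-5+GFP embryos. Of the latter, 5 lay below every control, and embryo 5 lay just inside the control range. cdc6.L fell by 0.43 (SE 0.09, limma adjusted p = 0.0135), and the call held without each embryo in turn (limma adjusted p up to 0.0388). cdc6.S ran from 2052 to 4442 with a median of 3217 in GFP and from 1589 to 2339 with a median of 1923 in Nkx2-5+GFP embryos. It fell by 0.69 (SE 0.16, limma adjusted p = 0.0247), and the call was lost without any one of GFP embryos 3, 4 and 6 and Nkx2-5+GFP embryos 1 and 2 (limma adjusted p of 0.0535 to 0.0654), and with no intensity trend in the fit (limma adjusted p = 0.0566).

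Cdt1 brings the helicase to the origin, and geminin, encoded by gmnn, holds Cdt1 back after licensing and is also known for its effect on neural fate in Xenopus. Both gmnn copies were lower by nearly the same size without passing, gmnn.L with a difference of -0.23 (SE 0.09, limma adjusted p = 0.151) and gmnn.S at -0.23 (SE 0.10, limma adjusted p = 0.152). Their signals were high, at 8322 ± 936 and 7126 ± 909 for gmnn.L and 5832 ± 771 and 4954 ± 575 for gmnn.S (SD, n = 6 each). cdt1.L stood at 5003 ± 1095 and 5128 ± 1250 in its brighter probe set, a log2 difference of 0.03, and at 4833 ± 494 and 4244 ± 539 in its other probe set, a difference of -0.19. Neither passed, and the probe sets differed in sign.

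Mcm2 to Mcm7 form the hexameric ring that unwinds DNA. Of 11 measured copies of these genes, 1 rose (9.09%, against 3.12% of all probe sets), 0 fell and 10 did not pass. At an unadjusted p under 0.05, 1 was lower and 2 higher (27.3%, near the 24.3% of all probe sets). The brightest probe sets showed small differences. mcm7.L stood at 10595 ± 517 in GFP and 10958 ± 718 in Nkx2-5+GFP embryos, mcm2.L at 4705 ± 489 and 4657 ± 402, and mcm5.L at 3485 ± 413 and 3711 ± 307 (SD, n = 6 each). Their log2 differences were 0.05, -0.01 and 0.09, with SEs of 0.06, 0.08 and 0.09. mcm4.L and mcm4.S had differences of -0.18 and -0.19, and mcm7.S of -0.03. mcm3.L was lower by more, from 868 ± 251 to 596 ± 159 (log2 difference -0.52, SE 0.19), but did not pass (limma adjusted p = 0.108). It was called with GFP embryo 5 or Nkx2-5+GFP embryo 5 left out (limma adjusted p down to 0.0355), the control of lowest and the Nkx2-5+GFP embryo of highest mcm3.L signal.

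Xenopus laevis has separate genes for a maternal and a zygotic form of Mcm6. In the RefSeq table, mcm6.L carries the synonym mmcm6 and mcm6.2.L the synonym zMCM6. mcm6.2.L signals ran from 260 to 465 with a median of 426 in GFP embryos, and from 532 to 673 with a median of 597 in Nkx2-5+GFP embryos. The groups did not overlap, and GFP embryo 3 was the lowest control. mcm6.2.L rose by 0.58 (SE 0.14, limma adjusted p = 0.0237), a call lost with GFP embryo 4 or Nkx2-5+GFP embryo 1 left out (limma adjusted p of 0.0502 and 0.0593). Its S copy was higher in both of its probe sets without passing, by 0.40 (log2; SE 0.19, limma adjusted p = 0.206) and, in a dimmer one, by 0.67 (SE 0.27, limma adjusted p = 0.140). mcm6.L, the form with the maternal synonym, went from 561 ± 137 to 514 ± 136 (log2 difference -0.13, SE 0.18, limma adjusted p = 0.723). The difference between mcm6.2.L and mcm6.L was not tested. zmcm3.L, a separate gene outside the rule with mcm3 as a synonym, stood at 317 ± 55.1 and 348 ± 54.9 (log2 difference 0.13, limma adjusted p = 0.621).

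The largest difference of all 55 copies by size was that of mcm5.S, and it did not pass. Its signals were low, from 38.2 to 135 with a median of 101 in GFP embryos and from 87.7 to 262 with a median of 198 in Nkx2-5+GFP embryos. Of the latter, 5 lay above every control and embryo 5 lay among them (log2 difference 0.97, SE 0.29, limma adjusted p = 0.0573, unadjusted exact permutation p = 0.0173). mcm5.S was called with GFP embryo 5 or Nkx2-5+GFP embryo 5 left out and with array weights (limma adjusted p down to 0.0204). Of the MCM genes outside the ring, mcm10.L, which acts when the helicase starts, and mcm8.L, a helicase gene of DNA repair, had log2 differences of -0.22 and -0.10 and did not pass.

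Among 8 genes of origin firing, 1 fell, 1 rose and 6 did not pass, where 3.26% of all probe sets fell and 3.12% rose. At an unadjusted p under 0.05, 1 was lower and 1 higher, a share near the 24.3% of all probe sets. The median log2 difference of the 8 genes was -0.0048, and 4 of them lay below 0. Cdc45 and the GINS subunits bind the Mcm2-7 ring and make it an active helicase. cdc45.L signals ran from 642 to 1849 with a median of 1084 in GFP embryos, and from 389 to 866 with a median of 545 in Nkx2-5+GFP embryos. The controls were widely spread, from GFP embryo 5, the lowest, to GFP embryo 3, the highest, and the groups overlapped. cdc45.L fell by 0.92 (SE 0.23, a 1.90-fold difference, limma adjusted p = 0.0328). Its exact permutation p was 0.0108 unadjusted and 0.118 adjusted over all probe sets. The call was lost without any one of GFP embryos 3, 4 and 6 and Nkx2-5+GFP embryos 1, 2, 4 and 6 (limma adjusted p of 0.0593 to 0.0803), and with no intensity trend in the fit (limma adjusted p = 0.0670). The log2 difference stayed between -1.08 and -0.78 over all single omissions.

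gins1.S, the gene of a GINS subunit also known as Psf1, moved the other way. Its signals ran from 297 to 529 with a median of 456 in GFP embryos, and from 538 to 940 with a median of 664 in Nkx2-5+GFP embryos, without overlap. It rose by 0.72 (SE 0.17, a 1.65-fold difference, limma adjusted p = 0.0256). Its exact permutation p was 0.00216 unadjusted and 0.0724 adjusted over all probe sets. The call was lost without any one of GFP embryos 2 and 3 and Nkx2-5+GFP embryos 1, 4 and 6 (limma adjusted p of 0.0528 to 0.0600). The other GINS subunit genes did not pass, gins2.L with a log2 difference of -0.09, gins3.L of 0.13 and gins4.L of 0.14, and gins2.L and gins4.L had means under 100 in both groups. cdc7.L, the firing kinase, was also dim at 92.6 ± 35.7 and 75.0 ± 38.2 (log2 difference -0.34, SE 0.34, limma adjusted p = 0.592). Its partner dbf4.L was bright and nearly level at 3556 ± 360 and 3429 ± 266 (SD, n = 6 each). topbp1.L, a scaffold that brings Cdc45 to origins, differed by 0.04 and did not pass.

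**Figure D2:**
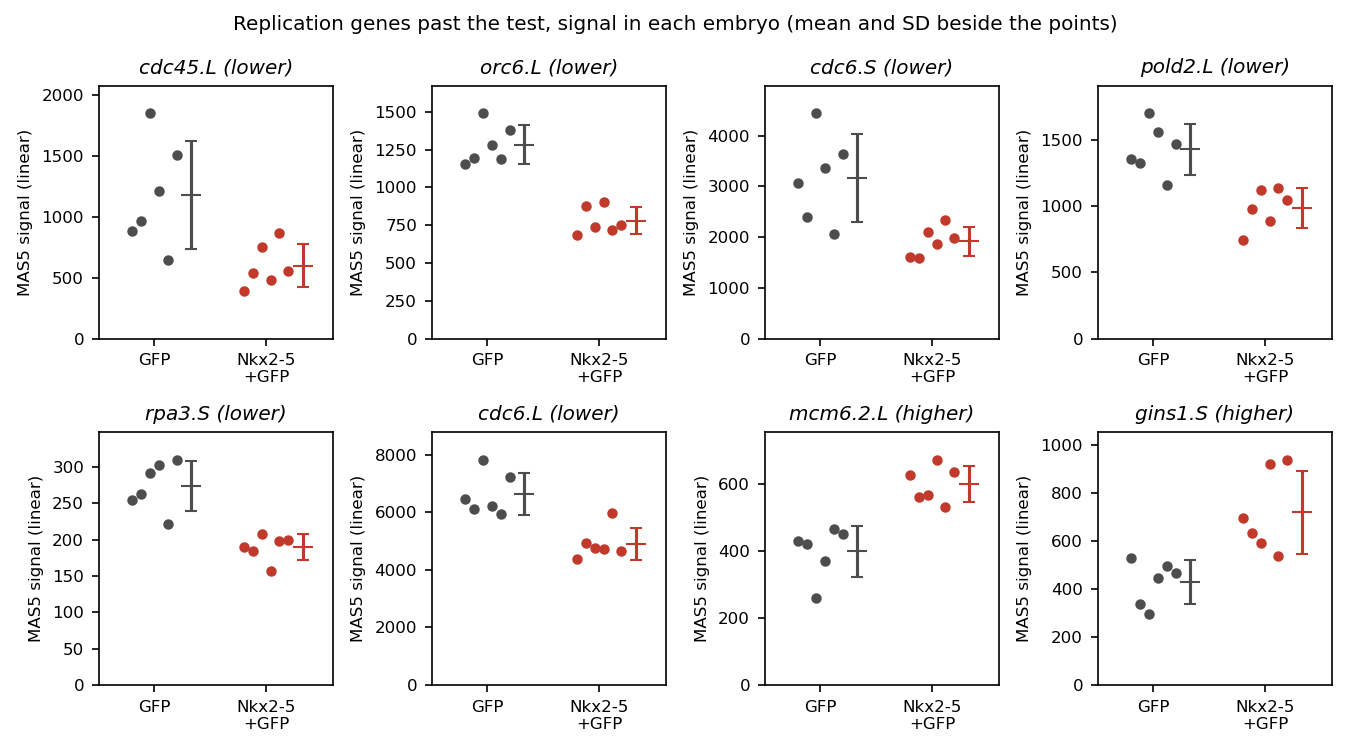
MAS5 signal on a linear axis from 0 in each of 6 GFP and 6 Nkx2-5+GFP embryos, in order of replicate number, for the 8 replication gene copies called, with the mean and SD beside the points. The groups do not overlap for orc6.L, pold2.L, rpa3.S, mcm6.2.L and gins1.S, and GFP embryo 5 lies within the range of Nkx2-5+GFP embryos for cdc6.L, cdc6.S and cdc45.L.

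Of 10 polymerase and primase genes, 9 had a log2 difference below 0 (90%, against 52.3% of all probe sets). Among the 9, the accessory subunit gene pole3.L lay at -0.00056 and changed sign with quantile normalization or median scaling. In this group 1 fell (10%, against 3.26%), 0 rose and 9 did not pass. At an unadjusted p under 0.05, 3 were lower and 0 higher (30%, near the 24.3% of all probe sets). pold2.L encodes a small subunit of polymerase delta, which copies the lagging strand. Its signals ran from 1158 to 1703 with a median of 1413 in GFP embryos, and from 746 to 1140 with a median of 1010 in Nkx2-5+GFP embryos. The groups did not overlap, though the lowest control, GFP embryo 5, lay close to the highest Nkx2-5+GFP embryo. pold2.L fell by 0.53 (SE 0.12, limma adjusted p = 0.0204), and the call was lost without GFP embryo 3 (limma adjusted p = 0.0515).

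pole.L, the catalytic subunit of the leading-strand polymerase epsilon, went from 1737 ± 158 to 1460 ± 307 (log2 difference -0.27, SE 0.12, limma adjusted p = 0.187). It was called without Nkx2-5+GFP embryo 5 (limma adjusted p = 0.0454), the embryo of highest pole.L signal in its group. That omission raised the calls over all probe sets from 988 to 1485. A dim second pole.L probe set, at means of 69.0 and 78.5, differed by 0.13. The catalytic subunit of polymerase alpha, pola1.S, went from 269.8 ± 20.9 to 219 ± 44.2 (log2 difference -0.30, SE 0.14, limma adjusted p = 0.205). The accessory subunit genes pole2.L, pold3.L, pola2.L, pole4.L and pole3.L had log2 differences of -0.15, -0.14, -0.07, -0.05 and 0.00, and none of these 5 passed. A dimmer pola2.L probe set, at means of 239 and 189, had a difference of -0.32 (limma adjusted p = 0.201). The primase genes prim2.S and prim1.S, which make the RNA primers, stood at -0.22 and 0.04 and did not pass.

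The 12 genes of the clamp, its loader, single-strand binding and strand joining had 1 that fell, 0 that rose and 11 that did not pass. The 1 lower call is 8.33% of them, against 3.26% of all probe sets. At an unadjusted p under 0.05, 3 were lower and 1 higher (33.3%, against 24.3% of all probe sets and 26.9% of all named gene copies). The RPA trimer coats single-stranded DNA, and rpa3.S encodes its smallest subunit. rpa3.S signals ran from 221 to 310 with a median of 277 in GFP embryos, and from 156 to 208 with a median of 194 in Nkx2-5+GFP embryos, without overlap. It fell by 0.49 (SE 0.13, limma adjusted p = 0.0333), a call lost without any one of GFP embryos 2, 3, 4 and 6 and Nkx2-5+GFP embryos 1, 2, 4 and 6 (limma adjusted p of 0.0504 to 0.0791). The other subunit genes rpa1.L and rpa2.L were lower by less and did not pass, with log2 differences of -0.32 (SE 0.16, limma adjusted p = 0.242) and -0.22 (SE 0.10, limma adjusted p = 0.171).

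PCNA is the sliding clamp that holds polymerases on DNA, and RFC loads it. pcna.L was among the brighter probe sets, at 10364 ± 1050 in GFP and 11651 ± 939 in Nkx2-5+GFP embryos, a log2 difference of 0.17 (SE 0.08) that did not pass (limma adjusted p = 0.198). pcna.S stood at 899 ± 76.0 and 879 ± 85.9, and a probe set annotated to both copies at 10305 ± 1797 and 11243 ± 1247 (log2 difference 0.14, limma adjusted p = 0.480). Of the loader genes, rfc3.L was lower at 2061 ± 379 and 1507 ± 507 (log2 difference -0.49, SE 0.18, limma adjusted p = 0.112). In rfc3.L, 5 Nkx2-5+GFP embryos lay below every control and embryo 5, at 2423, lay within the control range, and the gene was called without that embryo (limma adjusted p = 0.0179). The other rfc3.L probe set had a difference of -0.32 and did not pass (limma adjusted p = 0.256). rfc4.L, rfc2.L and rfc5.L had differences of -0.18, -0.08 and -0.04. The flap nuclease genes fen1.L and fen1.S, whose product trims Okazaki fragments, stood at -0.21 and 0.02, and the ligase gene lig1.L at -0.21, and these 3 did not pass.

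Ribonucleotide reductase makes the deoxynucleotides for replication. Its large subunit gene rrm1.L went from 5769 ± 579 to 5360 ± 667 in its brighter probe set (log2 difference -0.11, SE 0.09, limma adjusted p = 0.511) and from 2852 ± 252 to 2398 ± 337 in the other (log2 difference -0.25, SE 0.09, limma adjusted p = 0.114). The small subunit is annotated on this array as rrm2.1.L and rrm2.2.L, which the rule does not take. rrm2.1.L stood at 14296 ± 553 and 14162 ± 689, and rrm2.2.L went from 7391 ± 1367 to 6110 ± 678 (log2 difference -0.26, limma adjusted p = 0.166).

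For 8 replication genes the array held both copies, so the difference between copies could be tested within embryos. The log2 value of the L copy minus that of the S copy was compared between groups with limma over all 1017 such pairs on the array, of which 11 passed, or 1.08%. None of the 8 replication pairs passed. At an unadjusted p under 0.05 were 1 of the 8, mcm5, and 170 of all 1017 pairs (16.7%). The share among replication pairs was thus not above that of the array. For mcm5, the L minus S value was 5.14 in GFP and 4.27 in Nkx2-5+GFP embryos, a difference of -0.87 (95% interval -1.56 to -0.18, limma adjusted p = 0.188). For cdc6, where both copies fell, the difference was 0.25 (95% interval -0.04 to 0.55, limma adjusted p = 0.360), and for mcm6.2 it was 0.19 (95% interval -0.27 to 0.65, limma adjusted p = 0.690). The gmnn copies differed least, at 0.01 (95% interval -0.26 to 0.27, limma adjusted p = 0.983). For mcm4, mcm7, pcna and fen1 the differences were 0.01, 0.08, 0.21 and -0.23, with intervals that include 0. A probe set of one copy may also bind transcripts of the other, and the amount of this was not tested.

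**Figure D3:**
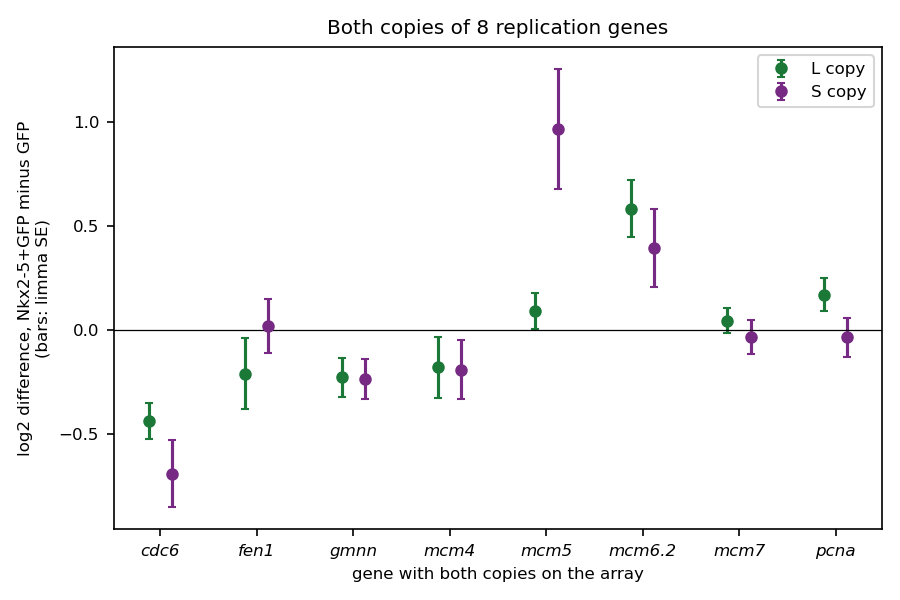
Log2 difference, Nkx2-5+GFP minus GFP, of the L and the S copy of the 8 replication genes with both copies on the array, with bars for limma's SE. Both cdc6 copies lie below 0 and both mcm6.2 copies above it, the gmnn copies coincide at -0.23, and mcm5.S at 0.97 stands away from mcm5.L at 0.09.

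Single embryos differed in the level of replication transcripts within each group. The median of the 55 copies, relative to their means over GFP embryos, was 0.13 on the log2 scale in GFP embryos 3 and 6 and -0.10 in GFP embryo 5, and it ran from -0.21 in Nkx2-5+GFP embryo 1 to -0.03 in embryo 5 of that group. The groups overlapped in this median, since GFP embryos 1 and 5 lay below Nkx2-5+GFP embryos 3, 5 and 6. For the mean of the 6 copies called lower, whose choice sets the direction, values ran from -0.36 in GFP embryo 5 to 0.35 in GFP embryo 3, and from -0.88 in Nkx2-5+GFP embryo 1 to -0.41 in Nkx2-5+GFP embryo 5. GFP embryo 3 was also the lowest control for mcm6.2.L and gins1.S, and had the highest GAPDH 3' to 5' log2 ratio, at 5.56 where the other GFP embryos lay between 4.53 and 4.90. Its beta-actin ratio was 1.77, near the GFP mean of 1.76. GFP embryo 6 had a GAPDH ratio of 4.70 and the lowest beta-actin ratio of the controls, at 1.49. The GAPDH ratio was 4.83 ± 0.38 in GFP and 4.59 ± 0.38 in Nkx2-5+GFP embryos (SD, n = 6 each; 2-sided exact permutation p = 0.292). Germ plasm and maternal markers summed to 13858 in GFP embryo 5, the lowest of the controls, and to 19630 in GFP embryo 6, the highest. The sum was nearly as high in GFP embryo 4, at 19513, whose replication median was 0.01, and it was 18078 in GFP embryo 3. The part of these measures in the replication results was not tested beyond the beta-actin ratio.

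**Figure D4:**
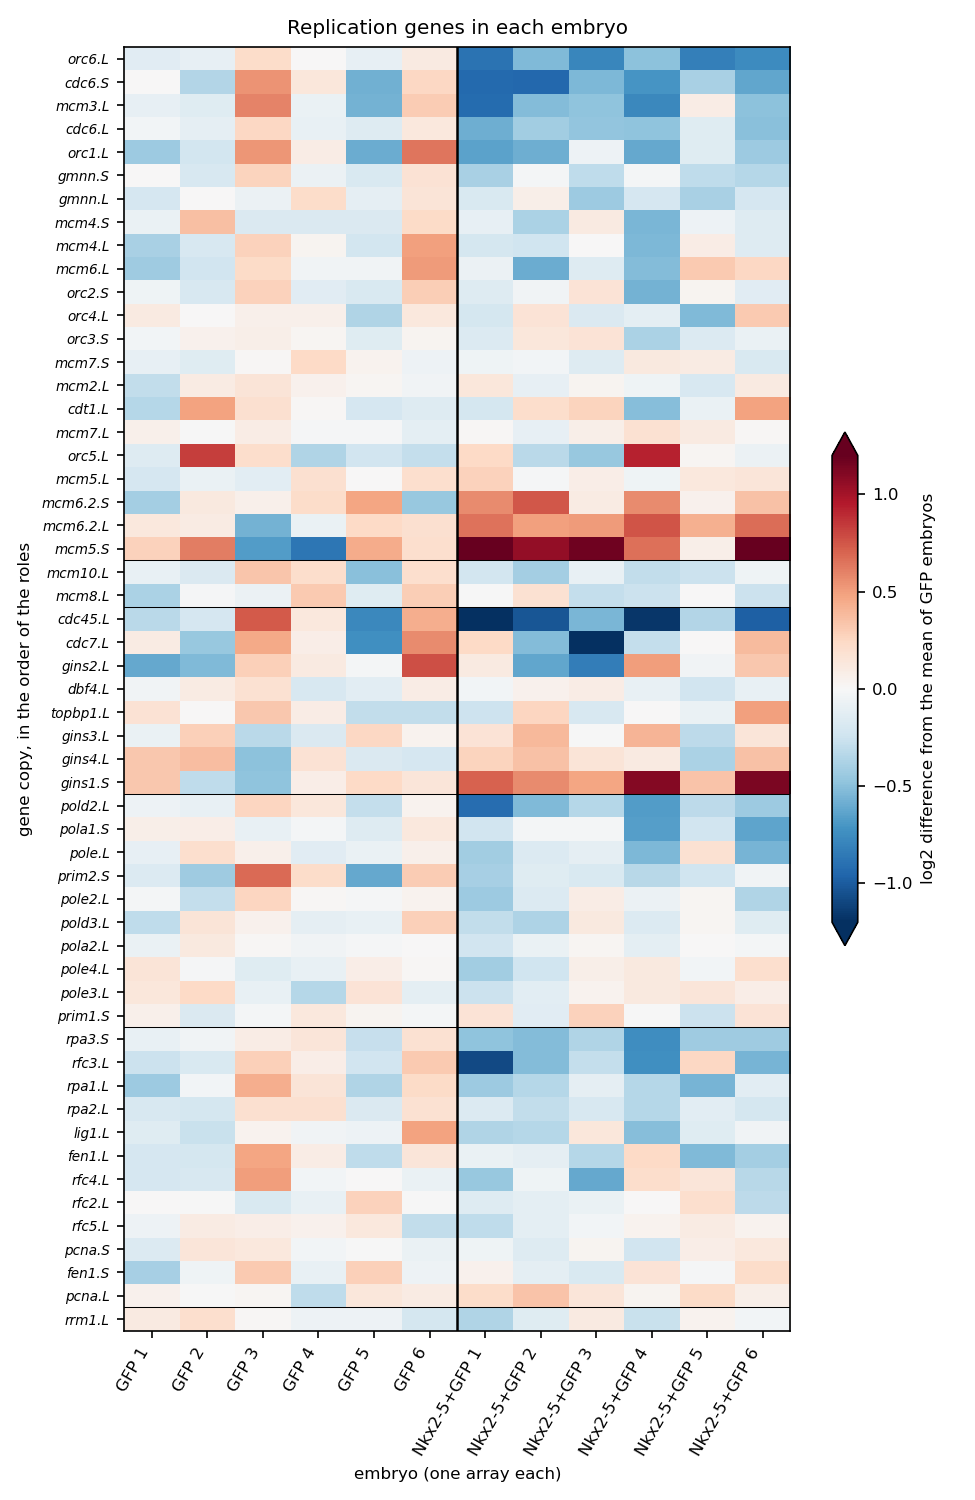
Log2 difference of each of the 55 copies in each of the 12 embryos from its mean over GFP embryos, with blue for lower and red for higher values and the colour scale ending at 1.2 on each side. The copies cdc6.S, mcm3.L, orc1.L and cdc45.L are low in GFP embryo 5 and high in GFP embryos 3 and 6, and are closest to the controls in Nkx2-5+GFP embryo 5 or 3.

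Other genes of S phase, 60 measured copies of regulators, checkpoint proteins, fork cofactors, nucleotide enzymes and chromatin assembly factors, had 5 that fell, 1 that rose and 54 that did not pass (8.33% and 1.67%, against 3.26% and 3.12% of all probe sets). Their median log2 difference was -0.16, and 41 of 60 lay below 0 (68.3%, against 52.3% of all probe sets). This list, too, was chosen with earlier results of these data known. dck.1.S, a deoxycytidine kinase gene that feeds the salvage of nucleotides, ran from 344 to 568 in GFP and from 200 to 299 in Nkx2-5+GFP embryos, without overlap, and fell by 0.69 (SE 0.15, limma adjusted p = 0.0166). chaf1a.L, which encodes the large subunit of the histone chaperone CAF-1, fell by 0.48 (SE 0.12, limma adjusted p = 0.0289). wee2.S, a kinase gene that restrains cyclin-dependent kinases, fell by 0.54 (SE 0.13, limma adjusted p = 0.0294), and cul4b.S, of the ubiquitin ligase family that degrades Cdt1, by 0.36 (SE 0.09, limma adjusted p = 0.0303). The fifth, named after its values were seen, was wdhd1.L, which links the helicase to polymerase alpha and fell by 0.46 (limma adjusted p = 0.0436).

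The S-phase gene that rose was cdk2.S, the cyclin-dependent kinase gene of S phase, from 1332 ± 157 to 1749 ± 243 (log2 difference 0.39, SE 0.11, limma adjusted p = 0.0447). The DNA methyltransferase gene dnmt1.S and the phosphatase gene cdc25a.L were next by p, with log2 differences of -0.48 and -0.53, and did not pass (limma adjusted p = 0.0539 and 0.0541). The 5 falls came to 1 without any one of GFP embryos 3 and 6 and Nkx2-5+GFP embryo 1, to 2 without any one of GFP embryo 4 and Nkx2-5+GFP embryos 2 and 4, to 3 without Nkx2-5+GFP embryo 6, to 13 without GFP embryo 5 and to 11 without Nkx2-5+GFP embryo 5. The share of all probe sets called lower moved too, from 3.26% with every embryo to 0.68% without Nkx2-5+GFP embryo 1. It was 5.06% without GFP embryo 5 and 5.44% without Nkx2-5+GFP embryo 5. The dck.1.S call held in all 12 omissions (limma adjusted p up to 0.0472). The cdk2.S call held with GFP embryo 5 or Nkx2-5+GFP embryo 3 left out and was lost without each of the other 10 embryos (limma adjusted p of 0.0535 to 0.106).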

How the data were processed

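The deposited table holds linear-scale intensity values per probe set, the output of MAS5 run by the authors, per the submitters' processing notes. The MAS5 version and scaling target were not given in the sources used here, and no detection call was used. Trimmed means were 1000.1 on all arrays, and no further scaling was applied. After 120 control probe sets were left out, limma 3.58.1 (R 4.3.3) was run on log2(signal + 16) of 15491 probe sets with lmFit and trended eBayes, with group as the factor and no covariate. P-values were 2-sided and Benjamini-Hochberg adjusted over all probe sets, with a threshold of 0.05. Log2 differences are on this scale, which understates changes of dim probe sets. Exact permutation tests used all 924 assignments of 12 embryos, and their p-values are unadjusted except where called adjusted. Probe sets were named from the platform annotation, in which 9304 had 1 gene, 195 several and 5992 none, and all 55 replication gene IDs were found in RefSeq. Any replication gene could be named, with full values for every called one, its other probe sets and, per role, the 2 of smallest p not called. Of S-phase genes, up to 4 called in each direction and 2 not called were named by p. The members and gene lists were chosen with earlier results of these data known. The fits were tested on simulated data with known shifts and noise drawn independently for each probe set. That simulation cannot speak to variation shared by many genes of an embryo. With arrays, the number of embryos limits the precision. Figures were drawn with matplotlib 3.10.9.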

Additional observations from a re-analysis of the deposited data

Results flagged for a closer look

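In 6 of 128 groups of 6 embryos examined, 1 embryo stood far from the other 5 by Dixon's criterion, where chance gives about 1 in 20. Among replication genes, gins4.L had a signal of 46.9 in Nkx2-5+GFP embryo 5, where the others lay between 72.3 and 88.5. orc4.L stood at 330 in GFP embryo 5 against 429 to 469 in the other controls, and pcna.L at 8374 in GFP embryo 4 against 10256 to 11361. rfc4.L reached 1971 in GFP embryo 3 against 1208 to 1395. Of the S-phase genes, cul4b.S stood at 3110 in Nkx2-5+GFP embryo 4, where the others lay between 3888 and 4443. The log2 GAPDH 3' to 5' ratio was 5.56 in GFP embryo 3, against 4.53 to 4.90 in the other controls.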

How the results depend on the processing

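The 6 lower and 2 higher calls among replication genes came out as 6 and 2 with a pseudocount of 1 or 64, quantile normalization, median scaling, robust eBayes or no s_at or x_at probe sets. Over these settings, 2.38% to 3.48% of all probe sets were called lower and 3.01% to 3.38% higher. The replication calls were 4 and 2 without the intensity trend, where cdc6.S and cdc45.L lost their calls, against 1.18% and 1.64% of all probe sets. They were 5 and 2 among the brighter probe sets, where rpa3.S was not tested (7.55% and 5.53% of those probe sets). With the mean of probe sets they were 5 and 2, and with array weights 6 and 3, each against 3.40% and 3.21% of all entries tested. With the beta-actin ratio as a covariate 1 replication gene was lower and 0 higher, against 0.26% and 0.77% of all probe sets. At an unadjusted p under 0.05, 7 of 55 were lower and 3 higher, and 2824 of all 15491 probe sets passed in either direction. In either direction, the replication genes thus passed about as often as all probe sets. In that fit cdc45.L stood at -0.87 (-0.92 without the ratio), cdc6.S at -0.59 (-0.69), pold2.L at -0.46 (-0.53) and mcm6.2.L at 0.53 (0.58). cdc6.L stood at -0.41 (-0.43), rpa3.S at -0.49 (-0.49), orc6.L at -0.72 (-0.71) and gins1.S at 0.76 (0.72). Calls over all probe sets numbered 988, and were 437 without the intensity trend, 160 with the beta-actin ratio and 0 by the exact permutation test (3515 at an unadjusted p under 0.05), whose smallest adjusted p was 0.0724, so that it called 0 replication genes in either direction (10 lower and 4 higher at an unadjusted p under 0.05). S-phase genes called lower numbered 1 without the trend, 0 with the beta-actin ratio and 0 by permutation. At an unadjusted p under 0.05, 17 of 60 were lower with the ratio and 16 by permutation. Of all 15491 probe sets, 2824 and 3515 passed that threshold in either direction. S-phase genes called higher numbered 2 with median scaling and 0 without the trend, with array weights, with the beta-actin ratio and by permutation (3, 3, 2 and 3 unadjusted). The 11 gene pairs became 19 with a pseudocount of 64, 7 with a replicate block, 5 with the beta-actin ratio and 0 by permutation (160 unadjusted). Leaving out 1 embryo gave 285 to 1485 calls over all probe sets, 2 to 9 lower and 0 to 3 higher replication genes, a median of -0.16 to -0.08, 1 to 13 lower and 0 to 1 higher S-phase genes, and 4 to 16 pairs. For these changes the cause was not tested. Deviations of same-numbered embryos had correlations of -0.147 to 0.131, not all above 0.1, so the numbers were not taken as pairs, although 5 of 12 embryos correlated best with their own number, a hint from the data and not from the design. With the replicate block, 5 replication genes were lower and 2 higher (9.09% and 3.64%, against 2.38% and 2.65% of all probe sets). There rpa3.S lost its call (limma adjusted p = 0.0662).

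Log2 differences that changed sign were near 0 and did not pass. They were cdt1.L -0.0086, mcm7.L -0.023, pcna.S 0.022, pole3.L 0.055 and rfc5.L 0.015 with quantile normalization, and mcm2.L 0.036, mcm7.S 0.017, pcna.S 0.015, pole3.L 0.048 and rfc5.L 0.0041 with median scaling. Array weights gave orc5.L -0.027, the mean of probe sets cdt1.L -0.082, and the beta-actin ratio cdt1.L -0.047, fen1.S -0.060, mcm7.S 0.024, orc5.L -0.037 and rfc5.L 0.00014. Over single omissions the range was -0.066 to 0.13 for cdt1.L, -0.059 to 0.083 for fen1.S, -0.069 to 0.051 for pole3.L, -0.071 to 0.023 for mcm2.L, -0.062 to 0.016 for mcm7.S and -0.12 to 0.22 for orc5.L. It was -0.050 to 0.10 for topbp1.L, -0.22 to 0.059 for gins2.L, -0.10 to 0.022 for pole4.L, -0.10 to 0.0076 for rfc5.L, -0.013 to 0.093 for prim1.S and -0.066 to 0.0063 for pcna.S.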
